A study of Mus musculus with 6 samples.

Results

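The secreted Wnt ligands, their receptors and antagonists, and the core genes that carry the signal, are described here as 60 of the 41253 gene symbols in the deposited count files. They were chosen by name: 19 Wnt ligands, 12 receptors (Frizzled genes, Lrp5 and Lrp6), 7 R-spondins and Lgr receptors, 10 secreted antagonists, the 2 E3 ligases, 6 cytoplasmic regulators (Ctnnb1, Apc, Axin1, Axin2, Nkd1, Nkd2) and 4 TCF/LEF factors. They were measured by RNA sequencing in carcinogen-induced squamous tumours of the oesophagus from C57BL/6 mice, 3 labelled wild type (WT, Ptpro+/+ in the design text) and 3 labelled Ptpro-/- (Ptpro-KO), a genotype without the receptor-type tyrosine phosphatase Ptpro. All mice, WT included, had received 4NQO, a DNA-damaging carcinogen, to drink for 16 weeks, starting when they were 6 weeks old, at a labelled 100 mg/mL. They were killed 12 weeks later or earlier after marked weight loss; the design text gives an age of 34 weeks, while an age tag reads week 6. The exons that the targeted allele lacks and the sex of the mice are not stated in the labels.

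Wnt proteins are secreted, lipid-bearing ligands that bind Frizzled receptors together with the co-receptors Lrp5 or Lrp6. In the canonical branch of the pathway this stops the complex of Axin and Apc from sending beta-catenin (Ctnnb1) to degradation, and beta-catenin then acts with TCF/LEF factors on its target genes. Secreted proteins of the Sfrp, Dkk, Wif1 and Notum kinds dampen the signal, the membrane E3 ligases Rnf43 and Znrf3 remove Frizzled receptors, and R-spondins bound to Lgr4, Lgr5 or Lgr6 block these ligases. In squamous epithelia the pathway is known for its part in the upkeep of basal progenitor cells and in the exchange between epithelium and the underlying stroma.

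The targeted gene went against the labels. The WT label carried 174, 9 and 67 reads of Ptpro, and the Ptpro-KO label 1094, 1824 and 1921. As reads per 1000000 of the TMM-scaled library total (CPM) this was 2.60 ± 2.35 against 41.2 ± 10.3 (SD, n = 3 each), with no overlap. On the log2 scale Ptpro was 3.97 higher (SE 0.85; adjusted p = 0.0617 by edgeR's quasi-likelihood method). Directions below are therefore between the libraries labelled Ptpro-KO and those labelled WT, and say nothing firmer about the genotype.

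Libraries held 25745240 to 39827467 reads on annotated transcripts, of which the 60 genes took 0.194% to 0.320%. The RNA of markers of several cell types moved with the label. The summed CPM of 6 squamous epithelial markers (Krt5, Krt14, Trp63, Krt13, Krt4, Dsg3), all detected in every library, was 35238 to 44895 under WT and 11664 to 19168 under Ptpro-KO, and 2 of the 6 fell. That of 8 fibroblast markers was 364 to 1972 and 3014 to 4699, where 2 of 8 rose, and that of 5 markers of simple epithelium was 37.8 to 83.7 and 1055 to 2116, where 4 of 5 rose. Single libraries also stood apart. Ptpro-KO replicate 3 held stomach transcripts (8 markers summed to 17320 CPM, against at most 29.9 elsewhere, with 3 to 5 of the 8 at 0 reads in each library labelled WT). Ptpro-KO replicate 2 held thyroid transcripts (785 CPM against at most 13.5), and WT replicate 2 had the least fibroblast signal (364 CPM). Skeletal muscle markers were low in WT replicate 2 and Ptpro-KO replicate 3, at 60.6 and 86.2 CPM, against 4884 to 11790 CPM in the other 4. Macrophage markers summed to 49.6 to 197 CPM under WT and 349 to 698 CPM under Ptpro-KO with 0 of 5 past the edgeR test, and endothelial markers overlapped, at 117 to 165 and 115 to 183 CPM. In such bulk tissue, fewer cells of a type and less RNA per cell cannot be told apart.

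Of the 60 genes, 53 had enough reads to be tested. The ligand Wnt4 and the receptor Fzd10 fell in the libraries labelled Ptpro-KO, and the antagonist Notum rose. These 3 of 53 genes (5.66%) passed an adjusted p of 0.05 by edgeR, where 4.1% of all 17663 tested genes did, 1.81% as higher and 2.29% as lower, so the share is near the background. In 17 of the 53 (32.1%) the 3 libraries of one label lay above the 3 of the other, against 32.5% of all tested genes. By direction, 12 were higher under Ptpro-KO (22.6% against 16.8%) and 5 lower (9.43% against 15.7%). The median log2 fold change was 0.36 over the 53 genes and 0.03 over all tested genes. At an unadjusted p of 0.05, 13 were higher and 3 lower, 30.2% of the 53 against 25.0% of all (13.7% higher and 11.3% lower). DESeq2 passed 9 as higher and 3 as lower, 22.6% of the 53, where it passed 17.9% of all genes (9.57% higher and 8.36% lower). The 7 untested genes were Wnt9b (37 reads over the 6 libraries), Rspo4 (17), Rspo2 (8), Wnt8a, Wnt8b and Dkk4 (3 each) and Wnt1 (1 read), all near the limit of detection.

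**Figure D1:**
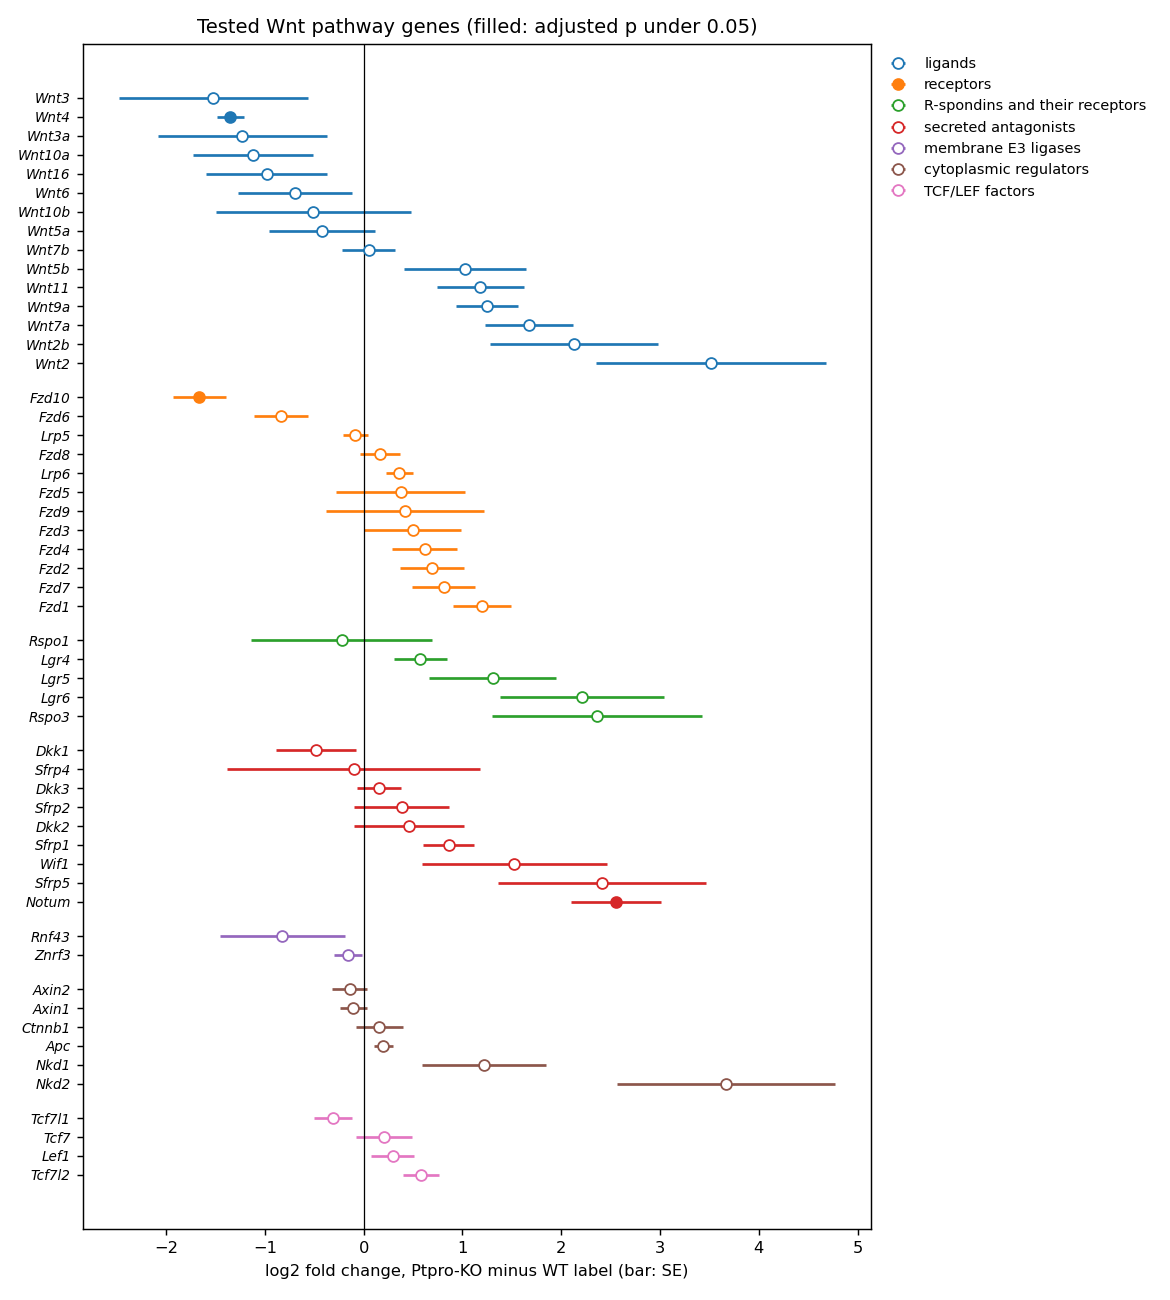
Log2 fold change (x axis, Ptpro-KO minus WT label, edgeR) of each of the 53 tested genes with its standard error (bars), ordered within the roles given by colour; filled points passed an adjusted p of 0.05. Only Wnt4 (-1.35), Fzd10 (-1.66) and Notum (2.56) are filled, while larger estimates such as Nkd2 (3.67) and Wnt2 (3.52) have wide bars.

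Among the ligands, Wnt4 was the most abundant and the one that passed the test. Wnt4, a ligand made by several epithelia, lies on chromosome 4 from 137277489 to 137299726 of GRCm38 (mm10), plus strand (ENSMUSG00000036856). Its level was 155, 188 and 199 CPM under the WT label and 78.0, 63.8 and 70.8 CPM under the Ptpro-KO label. The lowest value under WT was thus well above the highest under Ptpro-KO. Wnt4 fell 2.55-fold, from 181 ± 23.0 to 70.9 ± 7.10 CPM (SD, n = 3 each). The log2 fold change was -1.35, with an SE of 0.14 and an edgeR adjusted p of 0.0145. The call held in the deposited FPKM table (48.3 ± 7.17 against 16.3 ± 2.13; limma adjusted p = 0.0198 on log2(FPKM + 1)). With 1 library left out, the edgeR adjusted p ran from 0.0373 to 0.0844 and missed 0.05 without WT replicate 2 (0.0713), WT replicate 3 (0.0844), Ptpro-KO replicate 1 (0.0507) or Ptpro-KO replicate 2 (0.0573).

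Promoter sequence is shown for the ligands of highest CPM whose groups did not overlap (Wnt4, which fell, and Wnt9a and Wnt11, which did not pass), so that the start-site regions of ligands with opposite signs can be read side by side. The stretches come from RefSeq on GRCm38.p6 and end at the first base that GENCODE M21 places in an exon, or at the RefSeq start. Capitals mark GC boxes (GGGCGG on either strand) and the TCF/LEF core CTTTGA on either strand, which do not overlap each other.
Wnt4, chr4:137277385-137277488, plus strand: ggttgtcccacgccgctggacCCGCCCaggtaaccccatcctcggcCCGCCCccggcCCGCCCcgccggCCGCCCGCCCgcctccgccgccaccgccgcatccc
Wnt9a, chr11:59306680-59306927, plus strand: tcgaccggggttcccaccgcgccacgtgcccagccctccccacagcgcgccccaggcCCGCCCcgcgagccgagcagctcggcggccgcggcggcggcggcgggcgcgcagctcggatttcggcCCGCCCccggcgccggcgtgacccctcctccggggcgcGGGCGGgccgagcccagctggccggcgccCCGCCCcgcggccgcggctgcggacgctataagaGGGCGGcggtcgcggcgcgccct
Wnt11, chr7:98834862-98835111, plus strand, the upstream of its RefSeq starts: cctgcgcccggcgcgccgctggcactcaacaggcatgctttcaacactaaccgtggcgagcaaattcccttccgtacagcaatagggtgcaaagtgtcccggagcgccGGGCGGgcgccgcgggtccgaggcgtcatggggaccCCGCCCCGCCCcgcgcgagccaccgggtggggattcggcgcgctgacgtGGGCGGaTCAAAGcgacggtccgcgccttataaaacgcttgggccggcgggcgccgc
The stretch of Wnt4 (104 bases) held 5 GC boxes, that of Wnt9a (248 bases) 5 and that of Wnt11 (250 bases) 4, overlapping matches counted. These counts are not scaled by length. The TCF/LEF core occurred once in the stretch of Wnt11 and not in those of Wnt4 or Wnt9a. The stretch before the other RefSeq start of Wnt11 (chr7:98838595-98838844, not shown) held 0 GC boxes and 0 cores. RefSeq windows of 250 bases before the start were at hand for 39 of the 60 genes. The core was present in those of 5 (Dkk1, Fzd1, Lef1, Wnt11 and Wnt5b), in 10.2% of their windows against 13.8% of the 32851 windows of all genes. GC boxes were present in 67.3% of the members' windows against 32.7% of all, and the members' windows had a median GC content of 66.4% against 52.4%. These matches describe letters and not bound sites.

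The make-up of the ligand pool differed with the label. FPKM, which divides fragments by transcript length and library size, allows levels of different genes to be compared. Under WT the order of mean FPKM was Wnt4 (48.3 ± 7.17), Wnt10a (32.5 ± 14.1), Wnt5a (12.9 ± 9.09) and Wnt7b (11.0 ± 0.68), and under Ptpro-KO it was Wnt4 (16.3 ± 2.13), Wnt10a (14.3 ± 11.7), Wnt7b (11.2 ± 3.74) and Wnt5a (9.31 ± 4.40; all SD, n = 3). Wnt4 and Wnt10a did not differ beyond their spread under Ptpro-KO, and Wnt5a and Wnt7b did so under neither label. Of the summed FPKM of the 19 ligands, Wnt4 made up 41.2%, 33.3% and 44.9% under WT and 23.8%, 24.0% and 19.3% under Ptpro-KO. The share was lower in each library labelled Ptpro-KO (39.8% ± 5.93 against 22.3% ± 2.68; SD, n = 3 each; 3 against 3 libraries cannot give an exact two-sided permutation p below 0.1, so shares are given without a test). Wnt9a went the other way, with 4.33%, 2.03% and 2.23% against 13.6%, 9.22% and 8.48%. The summed FPKM of all 19 ligands was 97.4, 155 and 119 against 77.2, 58.9 and 84.9, again without overlap.

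**Figure D2:**
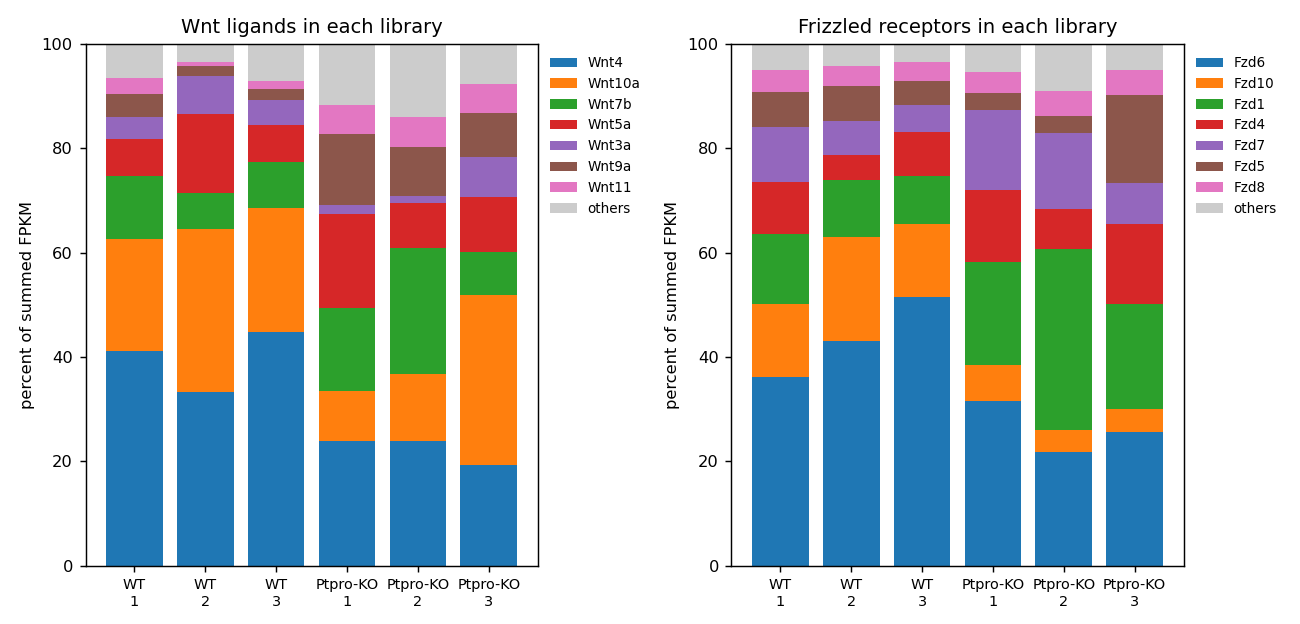
Share of each gene (y axis, percent of summed FPKM) among the 19 Wnt ligands (left) and the 10 Frizzled genes (right) in each of the 6 libraries (x axis); grey holds the remaining genes. Wnt4 takes 33.3% to 44.9% of the ligand pool under WT and 19.3% to 24.0% under Ptpro-KO, and Fzd10 takes 13.9% to 19.9% and 4.25% to 6.90% of the Frizzled pool.

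Several less abundant ligands had higher estimates under Ptpro-KO without passing the edgeR test. Wnt9a stood at 12.1, 8.57 and 7.44 CPM under WT and 30.5, 15.5 and 20.7 CPM under Ptpro-KO (log2 fold change 1.25, SE 0.32, edgeR adjusted p = 0.0847). Wnt7a, a ligand of many embryonic and surface epithelia, stood at 0.783, 2.19 and 0.926 CPM and 4.59, 3.54 and 4.30 CPM (1.68, SE 0.44, edgeR adjusted p = 0.0924). In both, each library labelled Ptpro-KO exceeded each labelled WT, and DESeq2 passed both (adjusted p = 0.00474 and 0.00810). Wnt11, which mostly acts without beta-catenin, stood at 7.48, 2.27 and 3.95 against 11.0, 8.91 and 11.3 CPM (1.18, edgeR adjusted p = 0.169). The mesenchymal ligand Wnt2 had 12, 0 and 1 reads under WT and 108, 57 and 20 under Ptpro-KO. Its groups did not overlap, but it was scarce in all libraries (edgeR adjusted p = 0.138), and with so few reads under WT its fitted fold change is loose. DESeq2 passed Wnt2 as well (adjusted p = 0.0369). The related Wnt2b stood at 1.10, 0.159 and 0.356 against 2.71, 0.798 and 3.74 CPM and overlapped (edgeR adjusted p = 0.190); in the FPKM table its means were closer, at 1.03 ± 0.21 and 1.55 ± 0.43 (SD, n = 3 each).

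Wnt10a and Wnt3a, ligands that signal through beta-catenin, were split by 1 library. Wnt10a stood at 33.2, 71.1 and 42.6 CPM under WT and at 12.2, 11.6 and 43.7 CPM under Ptpro-KO. Wnt3a stood at 9.13, 24.0 and 12.1 against 2.99, 1.74 and 14.5 CPM. In both genes Ptpro-KO replicates 1 and 2 lay below every library labelled WT, and Ptpro-KO replicate 3, the library with stomach transcripts, lay among them. That library also had the lowest squamous marker sum (11664 CPM). The part of its tissue content in these values was not tested. Over all libraries the log2 fold changes were -1.12 and -1.23 (edgeR adjusted p = 0.315 and 0.423). Without Ptpro-KO replicate 3 they were -2.05 and -2.68 (edgeR adjusted p = 0.0597 and 0.0768). Wnt5a stood at 30.0, 92.3 and 35.0 against 57.0, 22.2 and 38.1 CPM, and its sign turned (from -0.42 to 0.26) without WT replicate 2. Wnt7b, at 32.1, 27.2 and 27.7 against 33.4, 37.9 and 18.7 CPM, differed by less than its spread (log2 fold change 0.05, SE 0.27). Of the other 5 tested ligands (Wnt3, Wnt5b, Wnt6, Wnt10b and Wnt16), none passed, with edgeR adjusted p from 0.361 to 0.793; Wnt3 had 65 reads in all libraries together.

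Among the receptors, Fzd10 fell. Fzd10, a Frizzled of restricted tissue range, is a gene of 1 annotated transcript on chromosome 5 from 128600844 to 128604093, plus strand (ENSMUSG00000081683). It stood at 23.0, 38.9 and 32.8 CPM under WT and 12.8, 9.01 and 8.09 CPM under Ptpro-KO. Every library labelled Ptpro-KO was below every one labelled WT, with means of 31.6 ± 8.03 and 9.96 ± 2.49 CPM (SD, n = 3 each), a 3.17-fold difference. On the log2 scale Fzd10 fell by 1.66, with an SE of 0.27 and an edgeR adjusted p of 0.0358. The size held with any 1 library left out (-1.92 to -1.49), but the edgeR adjusted p then ran from 0.0562 to 0.153 and missed 0.05 in all 6 cases.

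Fzd6, known from planar polarity of the skin, was the Frizzled of highest FPKM under WT (36.7 ± 13.2), while under Ptpro-KO it (20.8 ± 2.44) and Fzd1 (20.2 ± 8.90; SD, n = 3) did not differ beyond their spread. Fzd6 stood at 84.9, 125 and 176 CPM under WT and 81.4, 65.5 and 69.2 CPM under Ptpro-KO. The groups were separate by a small gap, and the log2 fold change of -0.84 (SE 0.27) did not pass (edgeR adjusted p = 0.133; DESeq2 0.0326). Fzd1 stood at 31.6, 30.5 and 30.5 CPM and at 52.4, 106 and 54.2 CPM. All 3 libraries labelled Ptpro-KO were higher, by a log2 fold change of 1.20 (SE 0.29, edgeR adjusted p = 0.0789; DESeq2 0.00256). Fzd7 (27.7, 19.6 and 18.8 against 45.2, 47.9 and 23.0 CPM) and Fzd2 (6.09, 6.70 and 5.84 against 8.77, 14.8 and 6.54 CPM) are close relatives of Fzd1, and both overlapped between labels (edgeR adjusted p = 0.185 and 0.253). No source used here says how reads matching several related genes were treated.

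The summed FPKM of the 10 Frizzled genes did not separate the labels, at 82.2 ± 16.0 and 79.9 ± 7.20 (SD, n = 3 each). Its make-up did. Fzd6 held 36.1%, 43.1% and 51.6% of it under WT and 31.7%, 21.8% and 25.6% under Ptpro-KO. Fzd10 held 14.1%, 19.9% and 13.9% against 6.90%, 4.25% and 4.43%. Fzd1 held 13.5%, 10.9% and 9.15% against 19.7%, 34.6% and 20.1%. Each of these 3 shares was without overlap, the first 2 lower and that of Fzd1 higher under Ptpro-KO. The shares of the remaining Frizzled genes overlapped. For scale, the CPM groups of 32.5% of all tested genes did not overlap.

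Fzd5, a Frizzled of gut and other endoderm, stood at 25.0, 30.3 and 24.5 CPM under WT and at 13.9, 16.8 and 72.8 CPM under Ptpro-KO. The high value was again that of Ptpro-KO replicate 3, and the part of the tissue content of that library was not tested. The log2 fold change was 0.38 over all libraries (edgeR adjusted p = 0.765) and -0.80 without that library (edgeR adjusted p = 0.0822). The co-receptor Lrp6 stood at 126, 115 and 117 against 151, 178 and 130 CPM, a difference without overlap but small (log2 fold change 0.36, edgeR adjusted p = 0.179). Lrp5 stood at 79.0, 80.7 and 78.7 against 66.0, 70.6 and 88.4 CPM (-0.08, edgeR adjusted p = 0.734). The remaining Fzd3, Fzd4, Fzd8 and Fzd9 overlapped between labels (edgeR adjusted p from 0.306 to 0.790).

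**Figure D3:**
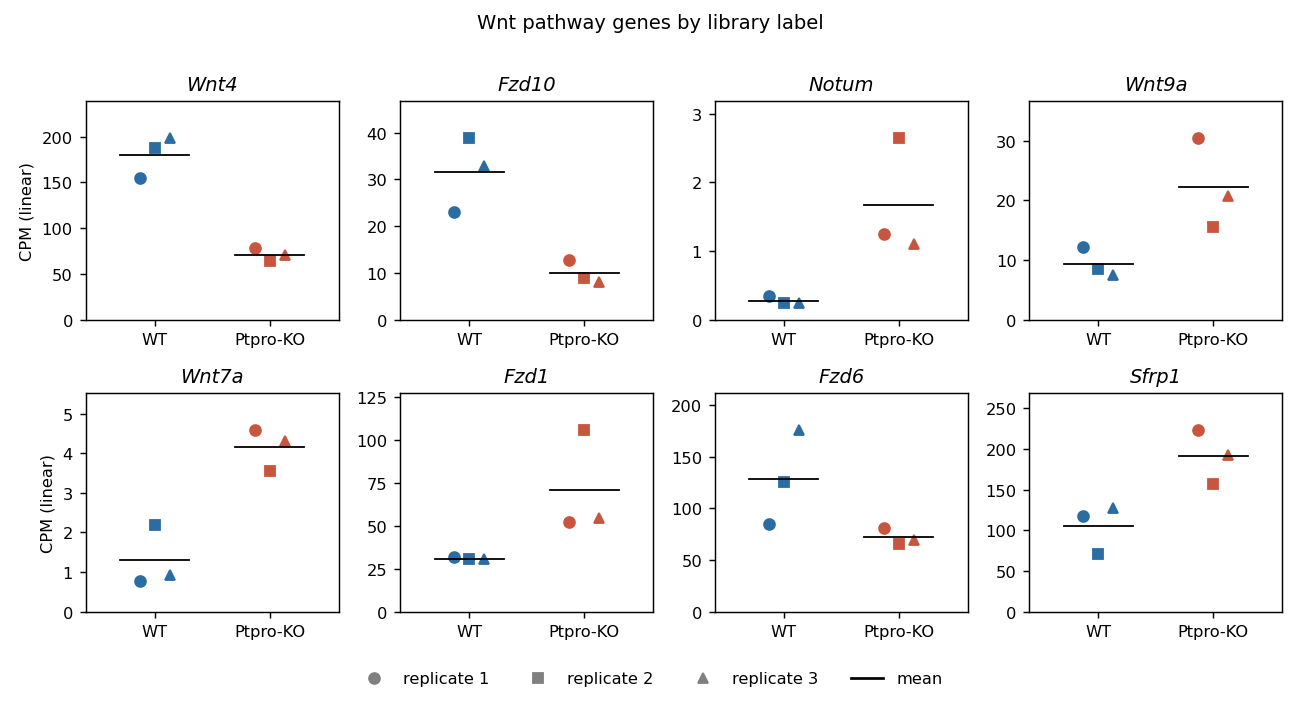
CPM (linear y axis from 0) in each library by label (x axis; symbols give the replicate, lines the mean) for the 3 genes that passed and 5 that did not but whose groups were separate. Wnt4 and Fzd10 are low in all 3 libraries labelled Ptpro-KO, and the rise of Notum spans 0.239 to 2.65 CPM.

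The squamous marker sum was lower under Ptpro-KO, as Wnt4 and Fzd10 were. Within the WT label, replicate 1 had the highest sum (44895 CPM) and the lowest Wnt4 and Fzd10 (155 and 23.0 CPM). The single markers were split in that library. Within WT it was highest in Krt13 and Krt4 (16018 and 10445 CPM) and lowest in Krt5, Krt14 and Trp63 (6569, 10480 and 410 CPM). Dsg3 lay between the other WT values (973 CPM). Per 1000 CPM of the 6 summed markers, Wnt4 stood at 3.45, 5.32 and 5.40 under WT and 4.07, 3.45 and 6.07 under Ptpro-KO. Fzd10 stood at 0.513, 1.10 and 0.890 against 0.667, 0.486 and 0.694. On this scale, added after the values were seen, both genes overlapped between labels, with mean log2 differences of -0.07 for Wnt4 and -0.39 for Fzd10 in place of -1.35 and -1.66. Fzd6 (1.89, 3.55 and 4.78 against 4.25, 3.54 and 5.93), Wnt10a (0.740, 2.02 and 1.15 against 0.635, 0.624 and 3.75) and Wnt3a (0.203, 0.681 and 0.329 against 0.156, 0.0937 and 1.25) overlapped as well, with means that were higher under Ptpro-KO. For Wnt10a and Wnt3a the higher mean rests on Ptpro-KO replicate 3. Their Ptpro-KO replicates 1 and 2 lay below every WT value. The part of the squamous cell content in the falls of Wnt4 and Fzd10 was not tested. The sum is carried by 4 keratins, among which Krt5 (log2 fold change -1.21) and Krt14 (-1.41) fell, while Trp63, the lineage factor of basal squamous cells, had a log2 fold change of -0.89 (edgeR adjusted p = 0.144).

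**Figure D4:**
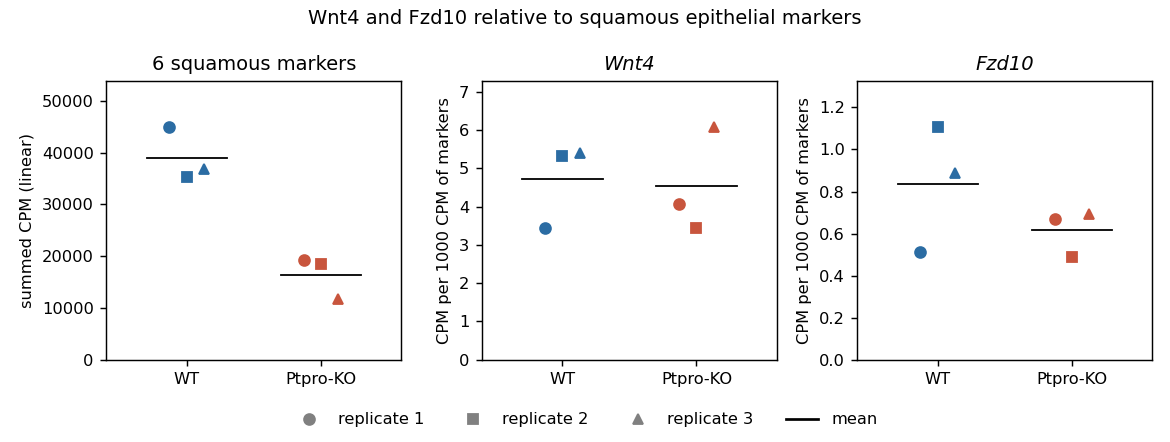
Summed CPM of 6 squamous epithelial markers (left), and the level of Wnt4 (middle) and Fzd10 (right) per 1000 CPM of those markers, by label and replicate, with means as lines and y axes from 0. The marker sum is 35238 to 44895 under WT and 11664 to 19168 under Ptpro-KO, and relative to it the labels overlap for Wnt4 and Fzd10.

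Of the R-spondins and Lgr receptors, 0 of 5 tested genes passed edgeR; Lgr6 had an unadjusted p below 0.05 and was passed by DESeq2. Lgr6, a receptor known from stem cells of the skin appendages, stood at 2.84, 6.89 and 6.55 CPM under WT and 46.4, 24.4 and 4.64 CPM under Ptpro-KO. Ptpro-KO replicates 1 and 2 were high and replicate 3 was at the level of WT (log2 fold change 2.21, SE 0.83, edgeR adjusted p = 0.171). Lgr5, the stem cell receptor of gut and stomach, stood at 3.16, 2.07 and 2.24 against 1.58, 7.27 and 9.65 CPM, so that here Ptpro-KO replicate 1 was lowest (edgeR adjusted p = 0.274). Lgr4, the broadly expressed receptor, was by far the most abundant of the 3, at 20.5 ± 2.92 and 31.2 ± 10.5 FPKM, against at most 3.93 ± 3.83 FPKM for the others (SD, n = 3). Its CPM was 76.7, 88.5 and 99.3 against 83.0, 170 and 141 (edgeR adjusted p = 0.259). Rspo3, the most abundant R-spondin under Ptpro-KO, had 49, 2 and 51 reads against 292, 64 and 288. Ptpro-KO replicate 2 was thus near the WT level (edgeR adjusted p = 0.239). Rspo1 had 90, 6 and 37 reads against 85, 23 and 27, and both genes were lowest in WT replicate 2, the library with the least fibroblast signal; the part of that in the result was not tested.

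Of the ligases that clear Frizzled receptors, both negative in sign, 0 passed by edgeR, by DESeq2 or at an unadjusted p of 0.05. Of all tested genes 4.1%, 17.9% and 25.0% did so. Rnf43 stood at 14.8, 20.9 and 22.8 CPM under WT and 6.28, 4.41 and 22.4 CPM under Ptpro-KO. As with Wnt10a and Wnt3a, Ptpro-KO replicate 3 lay among the libraries labelled WT. The log2 fold change was -0.82 (edgeR adjusted p = 0.467), and -1.87 without that library, where it passed (edgeR adjusted p = 0.0491). Znrf3 overlapped, at 24.7, 30.1 and 23.1 against 20.9, 24.2 and 24.5 CPM (-0.16, SE 0.14).

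**Figure D5:**
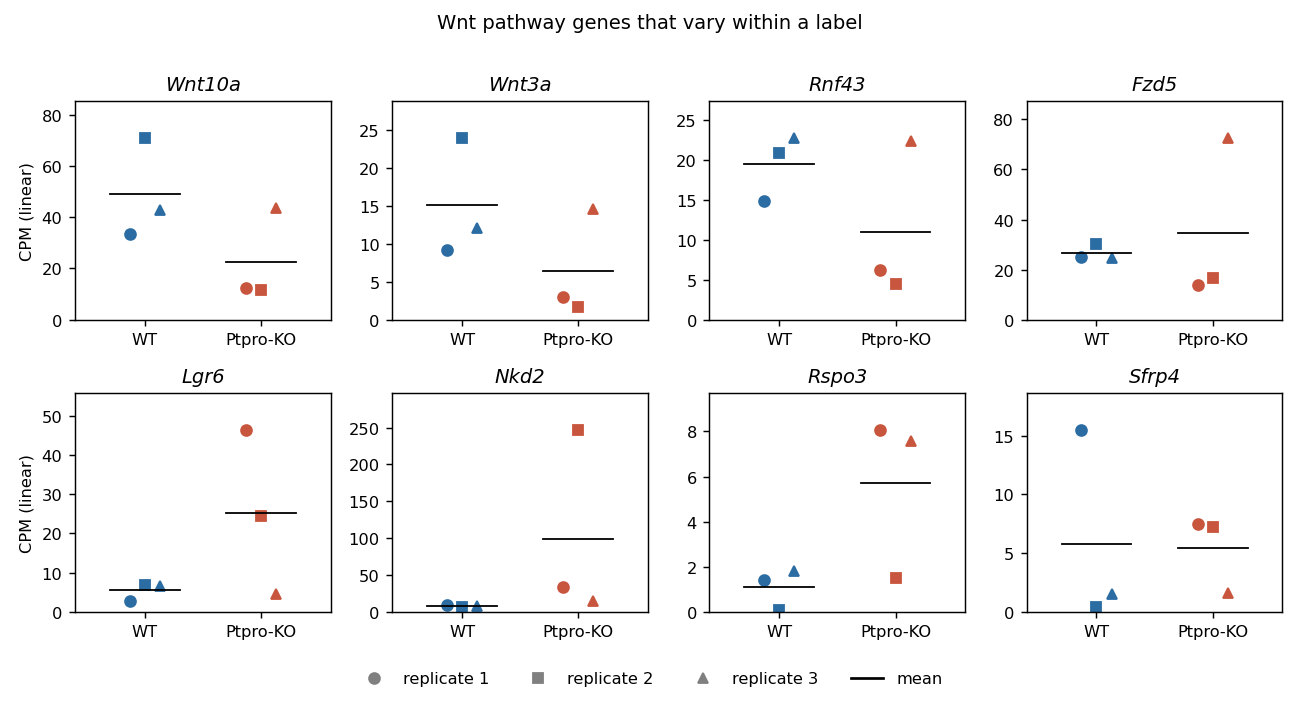
CPM (linear y axis from 0) by label and replicate, with means as lines, of 8 genes that varied within a label. Ptpro-KO replicate 3 (triangle) sits with the libraries labelled WT for Wnt10a, Wnt3a and Rnf43, is highest for Fzd5 (72.8 CPM) and lowest under its label for Lgr6 (4.64 CPM), while Nkd2 reaches 247 CPM in Ptpro-KO replicate 2.

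Among the secreted antagonists, Notum rose. Notum, an enzyme that removes the lipid of Wnt proteins and is itself a target of beta-catenin in several tissues, lies on chromosome 11 from 120653788 to 120661175, minus strand (ENSMUSG00000042988). Under the WT label it had 12, 6 and 7 reads, and under the Ptpro-KO label 45, 113 and 42. In CPM this was 0.348, 0.239 and 0.249 against 1.25, 2.65 and 1.11, so the groups were separate, at a low level throughout. The means were 0.279 ± 0.060 and 1.67 ± 0.854 CPM (SD, n = 3 each), a 5.98-fold difference, with a log2 fold change of 2.56, an SE of 0.46 and an edgeR adjusted p of 0.0434. With 1 library left out the edgeR adjusted p was 0.0520 to 0.181 and missed 0.05 in all 6 cases, and limma-voom gave 0.0560. Exons of the opposite strand (Notumos and Myadml2os) overlap those of Notum. No source used here says whether the counting used strand, so reads of the 3 genes cannot be told apart. The same limit applies to Axin2, Ctnnb1, Fzd5, Fzd6, Lef1, Rspo3, Sfrp2, Tcf7l1, Wnt5a, Wnt7b and Wnt11, whose exons also overlap exons of the opposite strand.

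Sfrp1, a secreted Frizzled-like protein that binds Wnt, was the most abundant antagonist per length under Ptpro-KO. It stood at 117, 71.3 and 128 CPM under WT and 224, 157 and 193 CPM under Ptpro-KO. The groups did not overlap (log2 fold change 0.86, SE 0.25), and edgeR did not pass it (adjusted p = 0.113; DESeq2 0.0172). Dkk3 overlapped, at 76.1, 103 and 102 against 78.6, 104 and 131 CPM. In FPKM, Dkk3 (33.2 ± 6.11) and Sfrp1 (28.1 ± 7.61) did not differ beyond their spread under WT, and Sfrp1 (50.8 ± 7.99) was above Dkk3 (36.7 ± 9.01; SD, n = 3) in mean under Ptpro-KO. Sfrp4 varied most within a label, at 15.5, 0.399 and 1.53 CPM under WT and 7.47, 7.23 and 1.61 CPM under Ptpro-KO. Its log2 fold change of -0.10 (SE 1.28) turned to 2.48 without WT replicate 1 (edgeR adjusted p = 0.229). Dkk2 stood at 15.9, 3.75 and 5.84 against 13.01, 8.42 and 13.8 CPM and Sfrp2 at 2.46, 1.04 and 2.21 against 1.36, 3.54 and 2.58 CPM, both with overlap. Sfrp5 had 16, 0 and 5 reads against 76, 17 and 43 (edgeR adjusted p = 0.226). The Lrp5/6 blocker Dkk1 and the Wnt-binding Wif1 were scarce, with 84 and 183 reads in all.

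The fibroblast marker sum was itself higher under Ptpro-KO, at 3014 to 4699 against 364 to 1972 CPM, beside the higher CPM of Sfrp1, Fzd1, Wnt9a and Notum. That sum is carried mostly by the collagens Col3a1, Col1a2 and Col1a1 (means of 2176, 676 and 542 CPM under Ptpro-KO). Col1a1 and Col1a2 rose by edgeR (log2 fold change 2.71 and 2.25). Col3a1, Pdgfra and Pdgfrb were higher without overlap but did not pass. Dcn, Lum and Dpt overlapped between labels (0.39, 0.87 and 0.54). Per 1000 CPM of the 8 summed fibroblast markers, Sfrp1 was 59.5, 196 and 146 under WT and 52.2, 33.5 and 64.0 under Ptpro-KO. Fzd1 was 16.0, 83.9 and 34.9 against 12.2, 22.5 and 18.0, and Wnt9a was 6.15, 23.5 and 8.50 against 7.11, 3.30 and 6.88. For these 3 genes the highest value was that of WT replicate 2, the library with the least fibroblast signal. Notum was 0.176, 0.657 and 0.285 against 0.291, 0.564 and 0.367, Wnt2 was 0.176, 0 and 0.041 against 0.697, 0.285 and 0.175, and Rspo3 was 0.721, 0.219 and 2.07 against 1.89, 0.319 and 2.52. The labels overlapped on this scale for all 6 genes. The part of the fibroblast signal in these CPM differences was not tested.

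Of the 6 cytoplasmic regulators, 0 passed edgeR, where 4.1% of all tested genes did. Nkd2 had an unadjusted p below 0.05 (16.7% of the 6 against 25.0% of all) and was passed by DESeq2 (16.7% against 17.9%). Ctnnb1 stood at 810, 820 and 849 CPM under WT and 792, 1262 and 716 CPM under Ptpro-KO, where replicate 2 was high and the others were below every WT value (log2 fold change 0.16, SE 0.24; -0.14 without Ptpro-KO replicate 2). Apc stood at 129, 135 and 129 against 138, 159 and 154 CPM, separate by a small step (0.20, SE 0.10, edgeR adjusted p = 0.271). The scaffold Axin1 (53.2, 51.6 and 44.0 against 41.7, 43.8 and 52.8 CPM) and Axin2, the feedback inhibitor widely used as a readout of beta-catenin signalling (10.4, 8.05 and 10.2 against 9.08, 7.77 and 9.07 CPM), overlapped. Their log2 fold changes were -0.10 (SE 0.14, edgeR adjusted p = 0.677) and -0.14 (SE 0.18, edgeR adjusted p = 0.665); scaled by library totals alone both turned slightly positive, at 0.05 and 0.01.

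Nkd1 and Nkd2 encode Dishevelled-binding inhibitors of Wnt signalling. Nkd2 stood at 9.05, 6.22 and 7.97 CPM under WT and at 33.8, 247 and 14.5 CPM under Ptpro-KO. All 3 values under Ptpro-KO were higher, but they spanned a wide range, and the highest came from replicate 2, the library with thyroid transcripts. The log2 fold change was 3.67 (SE 1.10, edgeR adjusted p = 0.116; DESeq2 0.000606), and 1.64 without that library. The part of the thyroid transcripts was not tested. Nkd1 stood at 2.67, 1.28 and 3.67 against 7.61, 2.04 and 8.06 CPM, and overlapped (edgeR adjusted p = 0.292).

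The TCF/LEF factors, which carry beta-catenin to DNA, had small estimates, from -0.31 to 0.58 on the log2 scale. Of 4, 0 passed edgeR, where 4.1% of all tested genes did. Tcf7l2 had an unadjusted p below 0.05 (25.0% of the 4 and 25.0% of all). It was passed by DESeq2 (adjusted p = 0.0318), 25.0% against 17.9% of all. Tcf7l2 stood at 8.12, 10.5 and 9.15 CPM under WT and 12.6, 12.8 and 16.0 CPM under Ptpro-KO, separate, with a log2 fold change of 0.58 (SE 0.18, edgeR adjusted p = 0.127). Tcf7l1 was the other way, at 2.58, 2.83 and 2.78 against 2.13, 2.23 and 2.24 CPM (-0.31, SE 0.20, edgeR adjusted p = 0.385). Lef1 (2.12, 1.75 and 2.24 against 2.68, 2.28 and 2.53 CPM) was separate by a very small step, and Tcf7 (4.52, 6.10 and 3.49 against 4.57, 6.64 and 5.09 CPM) overlapped.

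Other genes of the pathway, in 4 lists of 76 genes, were set beside these. Of 68 tested, 3 rose and 3 fell by edgeR, 8.82% against 4.1% of all tested genes (1.81% higher and 2.29% lower). DESeq2 passed 12 as higher and 11 as lower, 33.8% against 17.9% of all, and the median log2 fold change was 0.03, as over all tested genes. Among 24 genes of Wnt secretion, co-receptors and planar polarity, Celsr3 and Prickle1 rose and Daam1 and Prickle3 fell by edgeR. These 4 made up 16.7% of the 24, against 4.1% of all tested genes. At an unadjusted p of 0.05, 7 of the 24 were higher and 5 lower, where 25.0% of all tested genes passed in either direction. DESeq2 passed 7 higher and 4 lower (45.8% against 17.9%). Daam1, a formin that acts downstream of Dishevelled, stood at 196, 190 and 205 CPM under WT and 95.9, 99.9 and 97.9 CPM under Ptpro-KO. The spread within each label was small, and its log2 fold change was -1.01 (SE 0.09, edgeR adjusted p = 0.0125). The planar polarity genes Celsr3 (0.522, 0.239 and 0.285 against 2.27, 2.70 and 2.24 CPM) and Prickle1 (5.80, 4.70 and 4.84 against 11.2, 10.8 and 12.4 CPM) had log2 fold changes of 2.75 and 1.16, and Prickle3 of -0.59 (edgeR adjusted p = 0.0253, 0.0319 and 0.0464). Porcn, which attaches the lipid to Wnt proteins, stood at 14.2, 33.2 and 13.3 against 67.0, 93.2 and 41.5 CPM, separate but not past the test (1.74, edgeR adjusted p = 0.0958). Wls, which carries Wnt proteins to the surface, overlapped (-0.04).

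Of 27 cytoplasmic and nuclear transduction genes, 1 fell and 0 rose by edgeR (3.7% against 4.1% of all tested genes). At an unadjusted p of 0.05, 3 were higher and 5 lower (29.6% against 25.0% of all tested genes), and DESeq2 passed 2 higher and 5 lower (25.9% against 17.9%). Csnk1a1, the casein kinase that primes beta-catenin for degradation, stood at 681, 707 and 759 CPM under WT and 429, 419 and 447 CPM under Ptpro-KO (log2 fold change -0.73, SE 0.11, edgeR adjusted p = 0.0328). Of 7 further secreted or membrane inhibitors, 0 passed edgeR. An unadjusted p below 0.05 was reached by 1 (14.3% against 25.0% of all tested genes). DESeq2 passed 1 lower (14.3% against 17.9%). Of 10 tested targets of beta-catenin known from other tissues, Ccnd1 (cyclin D1) rose, from 103, 135 and 132 to 323, 325 and 237 CPM (1.26, SE 0.18, edgeR adjusted p = 0.0305). By edgeR 1 of the 10 passed, where 4.1% of all tested genes did. At an unadjusted p of 0.05, 3 of the 10 were higher and 1 lower (40.0% against 25.0% of all tested genes). DESeq2 passed 3 higher and 1 lower (40.0% against 17.9%). A negative sign was seen in 6 of the 10. Targets that are also in the 60 genes were not fixed as a list, and those named here need not be all. Of these, Notum rose while Axin2, Lef1, Nkd1, Lgr5, Rnf43 and Znrf3 did not pass.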

How the data were processed

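The 6 tumours gave total RNA libraries, read on an Illumina HiSeq, as the labels state. Per the submitters' processing notes, the authors used Bowtie 0.12.2 and the mm10 build. The deposited per-sample files give whole read counts per Ensembl transcript, with RPKM values that equal the count per kilobase and per 1000000 counted reads, per the file headers and values. The deposited gene table of FPKM values was used for levels between genes and as an alternative; no source used here names its tool, and its 2 further columns were not used. Nothing in the labels says how reads shared by isoforms or related genes were counted.

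Counts were summed per symbol (41253 symbols, 100249 transcripts, 0 reads without a gene name). Genes passed filterByExpr (at least 10 scaled counts in 3 libraries, 15 in total), were scaled by TMM and tested with edgeR 4.0.16 quasi-likelihood (R 4.3.3), Ptpro-KO minus WT, with Benjamini-Hochberg adjustment over all 17663 genes and a threshold of 0.05. SE is the log2 fold change over the root of F. Positions are from GENCODE M21 (GRCm38), which held 97.2% of the transcripts. Alternatives used DESeq2 1.42.0, limma 3.58.1, other scalings and filters, and each library left out. The scripts were tested on simulated data. Same-label libraries differed far beyond sampling noise (chi-square divided by its degrees of freedom, 66.9 to 307). Libraries were taken as separate mice, as the design text gives 3 per group.

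The genes, lists and tests were chosen with earlier results of these data known. Genes given in full were those past the test, up to 5 of highest CPM per role, 8 of smallest p among the rest, and those varying by over 3 log2 units within a label with at least 5 CPM, plus the 6 pathway genes past the test. Porcn and Wls were chosen after their values were seen. At these depths the spread between libraries limits all but the scarcest genes.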

Additional observations from a re-analysis of the deposited data

How the results depend on the processing

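Wnt4, Fzd10 and Notum kept their direction under every alternative run, and of 751 alternative values for the 42 members given in full 682 kept both direction and side of the threshold. Members passing as higher (1 by edgeR) numbered 9 by DESeq2 and 0 by limma-voom, without the low-count filter, with the replicate block and by limma on FPKM at either pseudocount or filtered; with 1 library left out the range was 0 to 0. Members passing as lower (2) numbered 1 with the prefix of the library name as a term, 1 by limma on log2(FPKM + 1), 0 with the replicate block, and 0 to 2 with 1 library left out; without Ptpro-KO replicate 3 these were Wnt4 and Rnf43. The other pathway genes past the test (6) numbered 23 by DESeq2, 1 with the replicate block and 0 to 4 with 1 library left out. Members without overlap (17) numbered 21 to 28 with 1 library left out, where fewer values have to be separate. Over all genes edgeR called 0 when replicate 2 or 3 of the WT label, or Ptpro-KO replicate 2, was left out (3369, 3078 and 4363 at an unadjusted p of 0.05), 132 without WT replicate 1, 93 without Ptpro-KO replicate 1 and 496 without Ptpro-KO replicate 3, against 725; other tools were not run on these subsets. Scaling by library totals alone moved the median log2 fold change of all genes from 0.03 to 0.19 and the calls from 320 higher and 405 lower to 630 and 294; without the filter the median was 0.11.

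The replicate numbers did not pair the libraries (correlations of deviations 0.54, 0.08 and -0.24 for same numbers). Not every library correlated best with its own number. Replicate 1 of each label, the pair at 0.54, shared the library name prefix LB, and the others had the prefix B. With the replicate block edgeR called 237 genes, and the adjusted p was 0.0542 for Wnt4, 0.0811 for Fzd10 and 0.0753 for Notum. Notum also missed the threshold without the filter (0.0543), with the prefix term (0.0625) and by limma on FPKM (0.0553 to 0.0891), and Fzd10 with the prefix term (0.0533) and on log2(FPKM + 1) (0.0557); Wnt9a passed with the prefix term (0.0395).

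Ptpro passed by DESeq2 (3.98), limma-voom (4.53), library totals (4.15) and limma on log2(FPKM + 1) unfiltered and filtered (2.32 each), and was 3.46 to 4.89 with 1 library left out. Signs turned only for members that did not pass. With library totals the log2 fold changes were 0.048 for Axin1, 0.0084 for Axin2, 0.069 for Lrp5 and 0.079 for Sfrp4. Fzd5 was -0.039 by limma-voom, -0.080 with the replicate block and -0.043 on log2(FPKM + 0.1). Sfrp4 was 0.95 by limma-voom, 0.76 with the replicate block, 1.14 with the prefix term, 0.50 on log2(FPKM + 1) unfiltered and filtered, and 0.95 on log2(FPKM + 0.1). Wnt7b was -0.0124 by limma-voom, -0.0087 with the replicate block, -0.026 on log2(FPKM + 1) unfiltered and filtered and -0.034 on log2(FPKM + 0.1). Rspo1 was 0.0032 on log2(FPKM + 0.1). With 1 library left out, the log2 fold changes spanned -0.14 to 0.31 for Ctnnb1, -0.044 to 0.29 for Dkk3, -0.80 to 0.72 for Fzd5, -1.19 to 0.61 for Rspo1, -0.66 to 2.48 for Sfrp4, -0.83 to 0.26 for Wnt5a and -0.16 to 0.30 for Wnt7b. The cause of these shifts was not tested. Read depth limits the genes under about 1 CPM, such as Notum and Wnt2.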
